A study of Mus musculus with 10 samples.

Results

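The genes of glycolysis and glucose uptake were followed over 5 stages of blood formation from mouse ES cells. The set holds 34 named genes for the glucose transporters, the enzymes from hexokinase to pyruvate kinase, lactate dehydrogenase, the lactate exporters, and the kinases and other enzymes that steer flux through the pathway. They were chosen by name from the authors' matrix of mean expression, and all 34 are among its 15686 genes. The count tables behind the matrix hold 55487 genes. A second entry of the matrix also named Aldoa is described separately.

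Nuclear RNA was sequenced from HM-1 cells, an established mouse ES cell line, and from 4 populations that the line formed in serum, with 2 libraries per stage. ES cells were taken from culture with LIF before differentiation. HB cells were FLK1+ cells (hemangioblasts) selected on magnetic columns from embryoid bodies after 3 d. The other 3 populations were sorted by FACS after FLK1+ cells had spent a further 2.5 d in blast culture with VEGF, IL-6, and conditioned medium. HE1 cells, the first stage of hemogenic endothelium, carried KIT and TIE2 but no CD41 at their surface. HE2 cells, its second stage, carried all 3 antigens, and HP cells, the hematopoietic progenitors, carried KIT and CD41 but no TIE2. ES medium contained added pyruvate, the embryoid bodies had another medium, and the 3 sorted populations shared that of the blast culture. Stage and medium therefore cannot be told apart where ES or HB enters a comparison, but HE1, HE2, and HP can be compared within the same medium. All libraries come from the same line. The study calls such duplicates biologically independent, without saying whether they were separate differentiations, and p-values measure the spread between these libraries.

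Glycolysis breaks glucose down to pyruvate in the cytosol and yields ATP without oxygen. Pyruvate is either reduced to lactate and exported or passed to the mitochondria through the pyruvate dehydrogenase complex. Most steps are served by several isoenzymes from different genes, which differ in regulation and in the tissues that use them. Pluripotent cells are known for high glycolytic flux, and the transcription factor HIF-1 induces many of these genes when oxygen is low.

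Between 24920434 and 58782055 fragments were counted on genes per library, and levels are given as CPM (counts scaled to library size with TMM factors). A level is a CPM and a difference is a log2 fold change with its SE. Genes were called as changed at an adjusted p-value under 0.05 with a change of at least 2-fold, by the quasi-likelihood test of edgeR with p-values adjusted after Benjamini-Hochberg over 22596 genes. Pluripotency genes were high in ES (Pou5f1, 549 and 520.1 CPM), and the endothelial cadherin gene Cdh5 had its highest mean in HE1 (1431 and 798). HE1 replicate 2 stood apart from HE1 replicate 1. It had more RNA of Pou5f1 (26.3 against 2.82 CPM), Nanog (11.6 against 0.72), and the cardiac gene Tnnt2 (74.2 against 16.0), and log2 levels of the 2 HE1 libraries correlated across genes at r = 0.967, against 0.983 to 0.994 in the other stages. The 6 ES markers summed to 93.8 CPM in it and 46.1 in HE1 replicate 1, against 2029 to 2108 in ES. Klf4 made up most of the sum in HE1 replicate 1 and was lower in replicate 2 (39.8 against 26.8 CPM), while the other 5 were higher in replicate 2. As a percentage of the ES mean, the median of the 6 was 3.8% in HE1 replicate 2 and 0.299% in replicate 1. Where leaving out HE1 replicate 2 ended a call of a member or moved its called change strongly, the value without it is given too. Counts and changes of the other pathway genes are from the fit of all libraries only, and how far they rest on HE1 replicate 2 was not tested. In such bulk samples fewer cells of a type and less RNA per cell cannot be told apart.

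All 34 genes passed the filter on low counts, and 27 had at least 9 CPM in all 10 libraries. The lowest was Pgam2, the muscle phosphoglycerate mutase, at 0 to 1.24 CPM. The highest was Pkm, which encodes pyruvate kinase, the enzyme of the last step, at 733 to 3628 CPM. In ES, however, Slc2a3 was higher (1979 and 2059 CPM against 1964 and 1944 of Pkm). Of the members, 26 were called in at least 1 comparison of stages. The share of all tested genes called in at least 1 was not computed. From ES to HP alone 16.7% of all tested genes were called higher and 21.9% lower. The 8 called in none were Gapdh, Gpi1, Hk1, Pdha1, Pdhb, Pdk3, Pfkfb1, and Pfkm.

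The enzyme genes taken as a sum were highest in HB and lowest in the 3 stages sorted from blast culture. The levels of the 17 enzyme genes from hexokinase to pyruvate kinase, each divided by its exon length, summed to 1567 and 1527 CPM per kb in ES and to 2537 and 3034 in HB. In HE1 the sum was 686 and 715 CPM per kb, in HE2 754 and 861, and in HP 884 and 757. Neither HB library came near any other stage, and the libraries of HE1, HE2, and HP lay close together. RNAs that stay in the nucleus differed between stages too. Malat1 was at 9947 and 10245 CPM in ES, 4296 and 3863 in HB, 5325 and 8784 at HE1, 6029 and 2699 at HE2, and 4004 and 5779 in HP. Neat1 was at 129 and 126 CPM in ES, 46.3 and 39.0 in HB, 55.7 and 316 at HE1, 60.2 and 26.9 at HE2, and 53.1 and 69.3 in HP. Both were lower in HB than in ES and HE1, although HE2 replicate 2 was lower still, and the third nuclear RNA of the list, Kcnq1ot1, was at 107 to 581 CPM with HB overlapping ES. The other 9 of the 12 genes of this list, all mitochondrial, were at 0 in every library. The part of these RNAs in the sum of the enzymes was not tested. The mean of HE1 was 25.1% of that of HB, and that of HP was 29.5%. Relative to ES, the sum was 0.84 higher in HB and 0.92 lower in HP as log2 ratios, given as a description without a test. Pkm, Aldoa, and Pgk1 together made up most of the sum in every library, with Pkm between 21.1% and 25.5%. Aldoa, for the main aldolase, took 18.2% and 18.0% in ES and 27.9% and 25.9% in HP, while Pgk1, for phosphoglycerate kinase, took 18.1% and 17.7% in ES and 12.2% and 11.9% in HP.

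**Figure D1:**
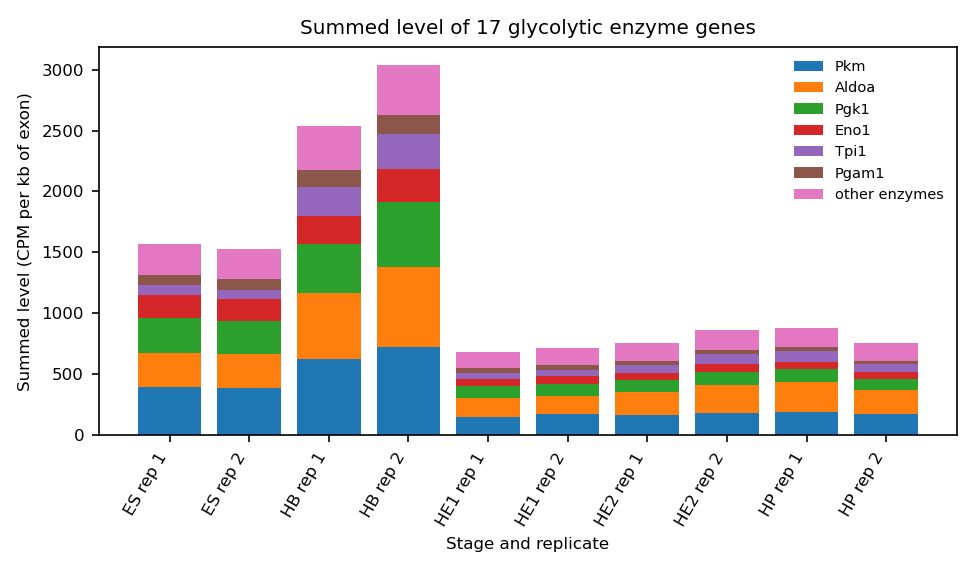
Summed level of 17 glycolytic enzyme genes in CPM per kb of exon (vertical axis) in each of the 10 libraries (horizontal axis), split by gene. The HB libraries stand at 2537 and 3034, the ES libraries at 1567 and 1527, and the 6 libraries from blast culture between 686 and 884.

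By mean level, 19 of the 34 members were highest in HB and 11 in ES, with 3 highest in HP and 1 in HE2. None was highest in HE1. Of all tested genes, 17.3% were highest in HB, 33.3% in ES, 23.5% at HE1, 10.1% at HE2, and 15.8% in HP. In 17 of the 19 members with their highest mean in HB, both HB libraries were above all 8 others. The exceptions were Eno2 and Pfkfb1. The share of all tested genes with such a gap was not computed, so this count describes the members only.

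**Figure D2:**
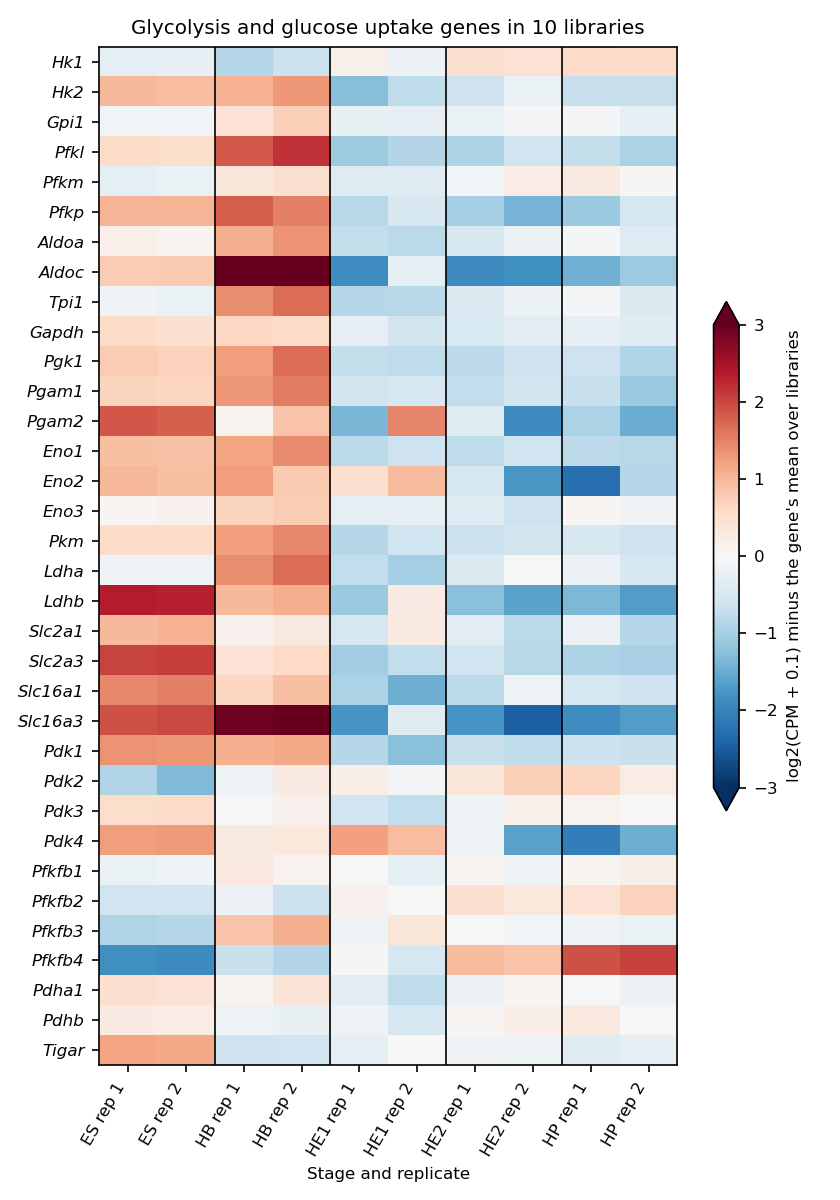
Log2 of CPM plus 0.1, less the mean of each gene over the 10 libraries (colour, cut at 3 in each direction), for the 34 genes (rows) in each library (columns). Most enzyme genes are reddest in the 2 HB libraries and blue from HE1 on, whereas Pfkfb4 and Hk1 run the other way and are highest in HP.

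From ES to HB, 9 members were called higher and 3 lower. Among all tested genes 11.5% were called higher and 17.3% lower. The median log2 fold change was 0.40 over the members and 0.00 over all tested genes. The 9 that rose were Pfkl, Aldoa, Aldoc, Tpi1, Ldha, Slc16a3, Pdk2, Pfkfb3, and Pfkfb4, and the 3 that fell were Slc2a3, Ldhb, and Tigar. By adjusted p alone the counts were 16 and 7, with 17.8% and 22.6% of all tested genes.

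From HB to HE1, 17 members were called lower and none higher, where the whole table had 8.19% called lower and 12.7% higher. Their median change was -1.0, against 0.04 over all tested genes. Under the adjusted p alone, 23 were lower and 2, Hk1 and Tigar, were higher, beside 14.8% and 17.5% of all genes. Without HE1 replicate 2 and without each other library in turn, between 16 and 19 members were called lower and none higher. The 17 were Hk2, Pfkl, Pfkp, Aldoa, Aldoc, Tpi1, Pgk1, Pgam1, Eno1, Eno3, and Pkm among the enzymes, Ldha and Ldhb, the transporter genes Slc2a3, Slc16a1, and Slc16a3, and Pdk1. Cell type markers moved at this step too. Summed over the list, the 5 smooth muscle markers were at 28.5 and 27.7 CPM in HB and 624 and 943 in HE1. Most of that HE1 sum was Acta2 and Tagln, while Myocd alone fell (11.3 and 14.6 CPM in HB, 1.81 and 4.03 in HE1). The 7 erythroid markers summed to 19.6 and 18.0 in HB and 549 and 270 in HE1, and only Epor fell (12.9 and 10.5 CPM in HB, 7.15 and 4.13 in HE1). The 7 endothelial markers summed to 319 and 286 in HB and 3147 and 1870 in HE1. They include Kit and Tek (TIE2), for which HE1 was sorted. No marker of these 3 lists was at 0 in every library, and the part of a change in cell types in the fall of the members was not tested. The comparisons of ES with HB and of HB with HE1 share the HB libraries, and the values of each gene in both are given side by side in what follows.

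**Figure D3:**
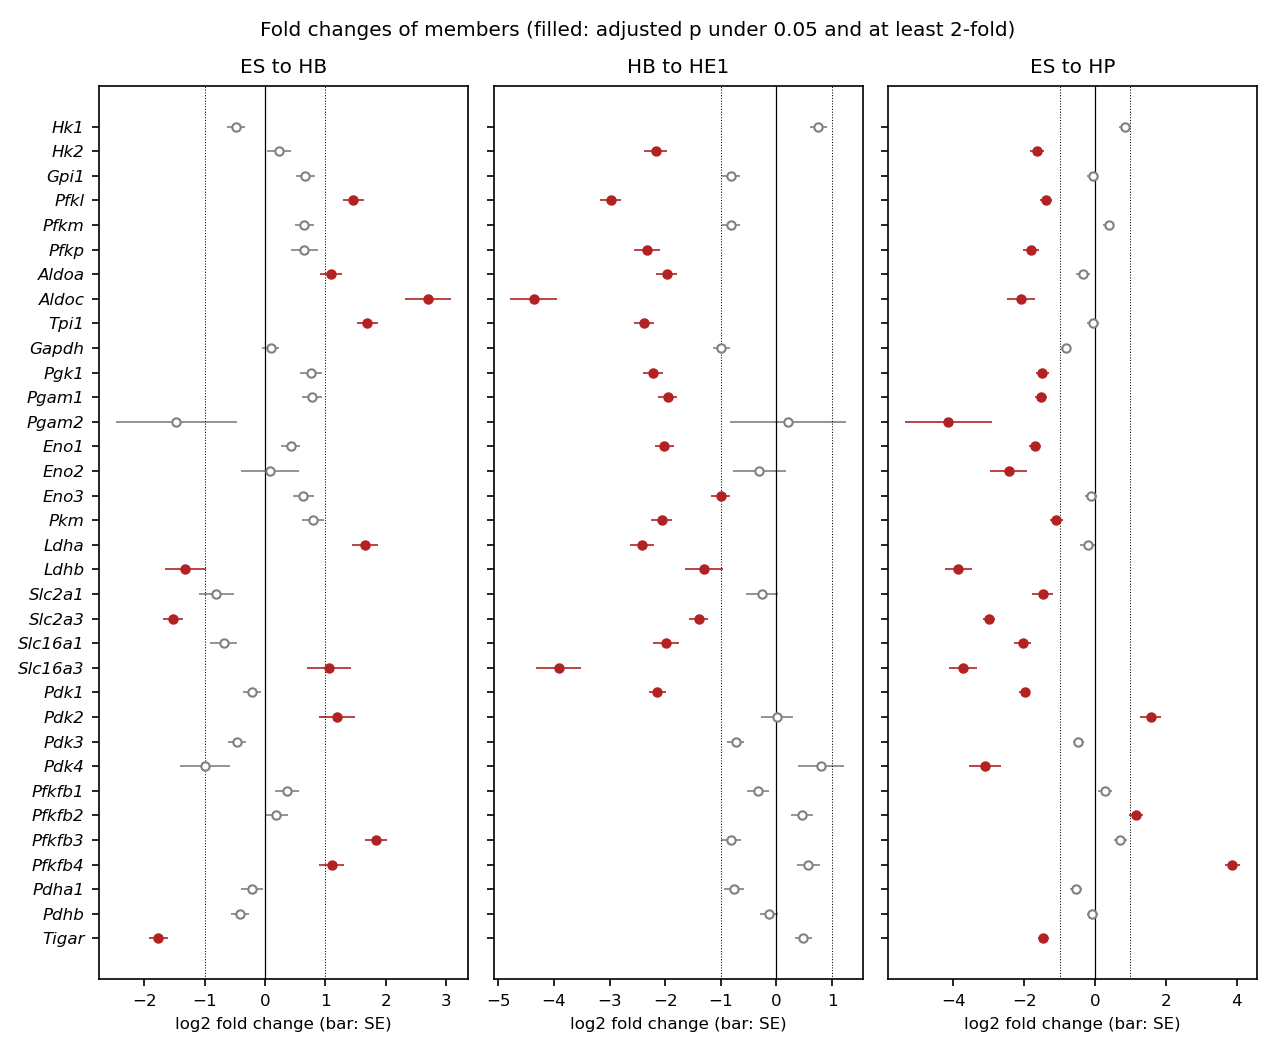
Log2 fold changes (points) with their SE (bars) of the 34 genes from ES to HB, HB to HE1, and ES to HP. Filled points passed edgeR's test at an adjusted p-value under 0.05 with at least 2-fold change, dotted lines mark 2-fold. The 9 filled points on the right for ES to HB give way to 17 filled points on the left for HB to HE1.

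Within the blast culture the counts of members called were near the share of all genes or below it. From HE1 to HE2, 1 was called higher (Pfkfb4) and 2 lower (Pdk4 and Eno2), with 3.26% and 5.39% of all tested genes. By adjusted p alone 2 were higher and 2 lower (6.12% and 7.12% of all genes). These counts rest on single libraries. Without HE1 replicate 2 no member was called higher or lower in this comparison, and without HE1 replicate 1 there were 2 higher and 6 lower. No lower call was left without HE2 replicate 2, 3 lower and 2 higher were made without HE2 replicate 1, and 1 lower was left without either replicate of ES or HB. From HE2 to HP no member was called by edgeR, nor was any other gene (0.0%). At an unadjusted p under 0.05 there were 3 members there, compared with 7.89% of all tested genes. Both limma-voom and DESeq2 called 1 member from HE2 to HP, which was Pfkfb4 in each. The share of all genes called by limma-voom and DESeq2 there was not computed. Across the span from HE1 to HP, 1 was called higher (Pfkfb4) and 3 lower (Pdk4, Eno2, and Ldhb), against 5.35% and 11.2% of all genes. Of the lower calls from HE1 to HP, 1 was left without HE1 replicate 2 or HP replicate 1, 2 without HP replicate 2, and 5 were made without HE1 replicate 1. Here the adjusted p alone gave 6 higher and 3 lower, where all genes had 11.0% and 13.9%. Comparing the ends of the series, 3 members were higher in HP than in ES (Pfkfb4, Pdk2, and Pfkfb2) and 18 lower, where the table as a whole had 16.7% and 21.9%. The adjusted p alone gave 5 and 21 (24.1% and 27.5% of all genes). The members' median change from ES to HP was -1.24.

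Glucose enters these cells through facilitative transporters. Slc2a1 encodes GLUT1, the widespread basal transporter, and Slc2a3 encodes GLUT3, which has a higher affinity for glucose. Slc2a3 was at 1979 and 2059 CPM in ES, 663 and 736 in HB, 239 and 292 at HE1, 322 and 276 at HE2, and 255 and 250.1 in HP. No ES library overlapped any other stage. The gene fell by 1.53 ± 0.17 (SE, log2) from ES to HB (adjusted p = 6.5e-05), by a further 1.40 ± 0.17 from HB to HE1 (adjusted p = 0.000236), and by 3.00 ± 0.18 over the whole course from ES to HP. Slc2a1 was at 829 and 864 CPM in ES, 459 and 509 in HB, 299 and 509 at HE1, 336 and 240.5 at HE2, and 374 and 234 in HP. HE1 replicate 2 reached the level of HB, and the libraries of the blast culture overlapped each other. Slc2a1 was called only from ES to HP, where it fell by 1.48 ± 0.29 (edgeR's adjusted p = 0.00158). Per kb of exon, Slc2a1 made up 46.4% of the RNA of both genes in ES, 58.9% in HB, 75.2% at HE1, 66.3% at HE2, and 70.5% in HP. Its share without scaling by length was 29.5% in ES and 53.9% in HP, so that Slc2a3 had the larger share in ES on both scales. The summed level of both transporters went from 520.1 CPM per kb in ES to 235 in HB, and thus did not peak there as the enzymes did.

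Hexokinase traps glucose as glucose 6-phosphate. Hk2, the inducible isoform, was at 341 and 331 CPM in ES, 359 and 431 in HB, 72.2 and 103 at HE1, 112 and 152 at HE2, and 107 and 108 in HP. It fell by 2.17 ± 0.21 from HB to HE1 (adjusted p = 6.14e-05). Hk1, the constitutive isoform, was at 70.0 and 70.9 CPM in ES and at its lowest in HB with 46.9 and 54.0, then at 94.9 and 75.4 at HE1, 118 and 114 at HE2, and 126 and 125 in HP. All libraries after HB were above all libraries of ES and HB. Its increases of 0.75 ± 0.15 from HB to HE1 (adjusted p = 0.00369) and 0.83 ± 0.15 from ES to HP (adjusted p = 0.000838) passed edgeR's test but were under 2-fold. Hk1 therefore went from 8.22% of the hexokinase RNA per kb in HB to 40.9% in HE1 and 45.0% in HP, where the libraries stood at 45.1% and 44.8%. In HE1 the shares of the libraries were 47.9% and 33.9%. Without scaling by length Hk1 held 53.9% in HP.

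Gpi1 encodes glucose 6-phosphate isomerase, the next enzyme. It was at 324 and 329 CPM in ES, 466 and 570.2 in HB, and 290.2 to 339 in the 6 libraries from blast culture, so that only HB stood apart. Its changes into HB (0.67 ± 0.16, adjusted p = 0.0066) and out of it (-0.82 ± 0.16, adjusted p = 0.00343) were under 2-fold.

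Phosphofructokinase commits sugar to glycolysis, and its liver, muscle, and platelet subunits come from Pfkl, Pfkm, and Pfkp. Pfkl was at 217 and 213 CPM in ES, 530.1 and 656 in HB, 70.5 and 80.2 at HE1, 77.5 and 99.0 at HE2, and 89.1 and 76.0 in HP. It rose by 1.46 ± 0.18 into HB (adjusted p = 0.000108) and fell by 2.98 ± 0.19 into HE1 (adjusted p = 6.08e-06), ending 1.38 ± 0.18 below ES in HP. Pfkp went from 327 and 324 CPM in ES to 567 and 456 in HB, 90.2 and 114 at HE1, 79.5 and 60.8 at HE2, and 74.1 and 112 in HP. The fall of Pfkp from HB to HE1 was 2.32 ± 0.23 (adjusted p = 7.76e-05), and its increase into HB was under 2-fold. Pfkm was the least abundant of the 3 in CPM, at 36.3 and 38.6 in ES, 56.2 and 61.6 in HB, 33.5 in each HE1 library, 41.3 and 51.6 in HE2, and 52.9 and 45.0 in HP, and was called in no comparison. The muscle subunit thus gained share while the others fell. It had 16.5% of the phosphofructokinase RNA per kb in ES, 12.2% in HB, 34.8% at HE1, 42.9% at HE2, and 43.1% in HP, while Pfkl had 61.3% in HB and 36.4% in HP. Pfkp has by far the longest exons, and without scaling by length Pfkp led in ES (56.3%) and Pfkm reached 21.9% in HP. In Pfkm, 10.2% of the exon bases are shared with another annotated gene, Gm26513, on which the same fragments were also counted. Gm26513 had 250 counts in all libraries together, against 15802 of Pfkm.

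**Figure D4:**
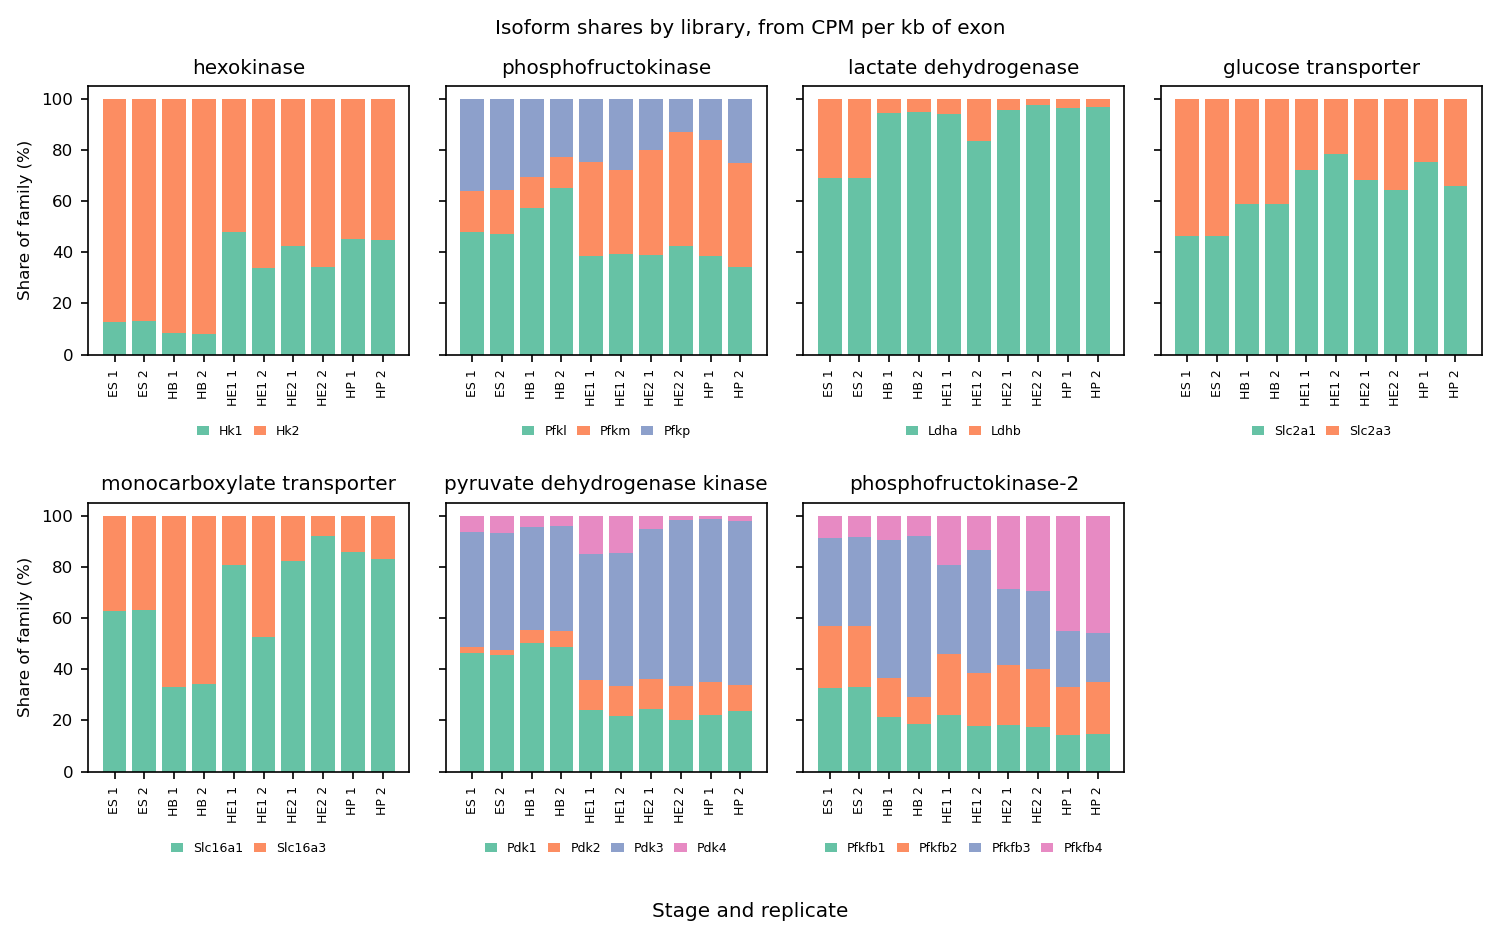
Share of each gene in its isoform family (percent of the family's CPM per kb of exon, vertical axis) in each library, labelled by stage and replicate. Hk1 and Pfkm take larger shares from HE1 on, Ldhb loses its share after ES, Slc16a3 leads only in HB, and Pfkfb4 grows to 45.4% in HP. HE1 replicate 2 differs from replicate 1 in the lactate dehydrogenase and monocarboxylate transporter panels.

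Aldolase splits fructose 1,6-bisphosphate. Aldoa was at 830 and 802 CPM in ES, 1577 and 1901 in HB, 459 and 427 at HE1, 538 and 660.3 at HE2, and 718 and 571 in HP. It rose by 1.09 ± 0.19 (adjusted p = 0.00106) and then fell by 1.97 ± 0.19 (adjusted p = 6.75e-05), and its level in HP differed from ES by -0.34 ± 0.19 (adjusted p = 0.151). Without HB replicate 2 the rise of Aldoa into HB was 0.95, under 2-fold. Aldoc, the brain isoform, was far rarer, with 8.03 and 8.23 CPM in ES, 47.3 and 59.1 in HB, 1.22 and 3.86 at HE1, 1.19 and 1.24 at HE2, and 1.66 and 2.16 in HP. It had the largest change of any member from ES to HB, 2.71 ± 0.38 (adjusted p = 0.000313), and from HB to HE1, -4.36 ± 0.42 (adjusted p = 6.5e-05), or -5.44 without HE1 replicate 2. Even in HB it made up only 2.65% of the aldolase RNA per kb. The second entry named Aldoa, a short gene model directly upstream of the main gene, was at 0.91 to 5.52 CPM and also fell from HB to HE1 (-1.46 ± 0.37, adjusted p = 0.0125), a call lost without HB replicate 1 (-1.33) or HE1 replicate 2 (-1.19).

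The enzymes in the middle of the pathway, Tpi1, Pgk1, and Gapdh, were highest in HB, Gapdh by little. Tpi1, for triose phosphate isomerase, was at 230.4 and 217 CPM in ES, 657 and 794 in HB, 137 and 141 at HE1, 185 and 221 at HE2, and 242 and 186 in HP. It rose by 1.70 ± 0.18 (adjusted p = 4.56e-05) and fell by 2.39 ± 0.18 (adjusted p = 1.76e-05). After a partial regain from HE1 to HP, which was under 2-fold (0.63 ± 0.18, adjusted p = 0.0256), its HP libraries overlapped those of ES. Pgk1 was at 638 and 605 CPM in ES, 901 and 1203 in HB, 230.0 and 221 at HE1, 218 and 243 at HE2, and 242 and 201 in HP. Its fall from HB to HE1 was 2.22 ± 0.18 (adjusted p = 2.74e-05), and HP differed from HE1 by -0.02 ± 0.18. Gapdh, for the glyceraldehyde 3-phosphate dehydrogenase often used as a reference gene, was at 209 and 198.7 CPM in ES, 220.2 and 215 in HB, and at 97.6 to 122 in all later libraries. Its change of -0.99 ± 0.15 from HB to HE1 (adjusted p = 0.000776) missed the 2-fold threshold narrowly and was past it in 9 of the 10 fits that left out a library. Gapdh has many processed copies in the genome and reads that map to several places were not counted, so its level is uncertain.

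Phosphoglycerate mutase and enolase come before pyruvate kinase. Pgam1 was at 173 and 171 CPM in ES, 272 and 316 in HB, 74.7 and 77.3 at HE1, 65.5 and 74.9 at HE2, and 69.0 and 50.9 in HP. It fell by 1.95 ± 0.17 from HB to HE1 (adjusted p = 3.6e-05). Pgam2 was counted 70 and 41 times in ES, 9 and 20 times in HB, 1 and 28 at HE1, 6 and 0 at HE2, and 4 and 1 in HP. It was called lower in HP than in ES (adjusted p = 0.016), but the call was lost when HP replicate 1 (-5.10) or HP replicate 2 (-3.68) was left out. From the summed counts, ES had 17.4 times the level of HP, with an exact (Clopper-Pearson) 95% interval of 7.24 to 54.7 that covers counting error only.

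Eno1, the ubiquitous enolase, was at 996 and 984 CPM in ES, 1227 and 1435 in HB, 308 and 352 at HE1, 317 and 356 at HE2, and 310.4 and 304 in HP. The fall from HB to HE1 was 2.01 ± 0.16 (adjusted p = 2.52e-05). A near-identical gene, Eno1b, had 213 and 206 CPM in ES, 274 and 331 in HB, and 63.0 and 81.7 in HE1, so fragments may have been split between them. Eno3, the muscle enolase, was at 15.3 and 16.1 CPM in ES, 23.4 and 25.2 in HB, and 9.49 to 15.3 in the later libraries. Its fall of 1.00 ± 0.18 from HB to HE1 (adjusted p = 0.00216) stood at the threshold and was lost in 4 of the alternative fits, among them that without HB replicate 2 (-0.99). Eno2, the neuronal enolase, was at 8.53 and 7.98 CPM in ES, 10.2 and 7.27 in HB, 5.97 and 8.16 at HE1, 2.86 and 1.18 at HE2, and 0.80 and 2.29 in HP. All HE2 and HP libraries were below all others. It fell by 1.80 ± 0.51 from HE1 to HE2 (adjusted p = 0.044), a call lost in 10 alternative fits, of which those without HE1 replicate 2 (-1.56) and HE2 replicate 2 (-1.29) moved the value most. From HE1 to HP the change was -2.22 ± 0.52 (adjusted p = 0.0122), and this call was lost without HE1 replicate 2 (-1.98) or HP replicate 1 (-1.61). Eno2 also fell by 2.44 ± 0.52 from ES to HP (adjusted p = 0.00269).

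Pkm was at 1964 and 1944 CPM in ES, 3146 and 3628 in HB, 733 and 888 at HE1, 849 and 909 at HE2, and 954 and 871 in HP. The increase into HB (0.79 ± 0.18, adjusted p = 0.00539) was under 2-fold and the fall into HE1 was 2.06 ± 0.19 (adjusted p = 4.25e-05). The muscle and embryonic forms of pyruvate kinase are splice products of Pkm and cannot be told apart in counts per gene. In addition, 15.3% of its exon bases are shared with Gm49759, on which the same fragments were counted. Gm49759 had 103706 counts in all libraries together, against 572438 of Pkm.

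Lactate dehydrogenase joins pyruvate and lactate. Its A subunit, from Ldha, favours lactate formation and its B subunit, from Ldhb, the reverse. Ldha was at 635 and 620.0 CPM in ES, 1787 and 2171 in HB, 406 and 334 at HE1, 508 and 685 at HE2, and 598 and 488 in HP. It rose by 1.66 ± 0.21 (adjusted p = 0.000147) and fell by 2.42 ± 0.21 (adjusted p = 3.7e-05), and HP differed from ES by -0.21 ± 0.20 (adjusted p = 0.417). Ldhb did not peak in HB. Its levels were 134 and 132 CPM in ES, 51.0 and 55.5 in HB, 12 and 30.9 at HE1, 11 and 8.48 at HE2, and 10.2 and 8.08 in HP. It fell by 1.32 ± 0.33 from ES to HB (adjusted p = 0.00943), by 1.31 ± 0.34 from HB to HE1 (adjusted p = 0.0149), and by 3.86 ± 0.37 from ES to HP (adjusted p = 1.44e-05), the largest drop of any member over that span except Pgam2. The call from ES to HB was lost without HB replicate 1 (-1.24) or HB replicate 2 (-1.38), and that from HB to HE1 without HB replicate 2 (-1.28) or HE1 replicate 1 (-0.83). Without HE1 replicate 2, the fall of Ldhb from HB to HE1 was larger (-2.15, adjusted p = 0.000266 by edgeR). Ldhb held 30.9% of the lactate dehydrogenase RNA per kb in ES, 5.40% in HB, and 3.43% in HP. In HE1 its share was 5.86% in replicate 1 and 16.3% in replicate 2, the library with more RNA of the ES markers, whose part in this was not tested. The call from HE1 to HP (-1.23 ± 0.34, adjusted p = 0.026) was not made without that library, where the change was -0.39, nor without HP replicate 1 (-1.39) or HP replicate 2 (-1.05).

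Lactate leaves cells through monocarboxylate transporters, of which Slc16a3 encodes the low-affinity exporter MCT4 and Slc16a1 the widespread MCT1. Slc16a3 was at 264 and 274 CPM in ES, 525 and 596 in HB, 20.2 and 53.8 at HE1, 20.4 and 12.7 at HE2, and 19.2 and 21.6 in HP. Every library from blast culture was far below ES and HB. The rise into HB was 1.06 ± 0.36 (adjusted p = 0.0368) and was lost in 5 of the alternative fits, which include leaving out any library of ES or HB (0.97 to 1.17), and the fall into HE1 was 3.92 ± 0.40 (adjusted p = 8.75e-05), or -4.79 without HE1 replicate 2. Slc16a1 declined throughout the early stages, from 373 and 392 CPM in ES to 216 and 259 in HB and 70.9 and 49.5 in HE1, with 78.3 and 123 in HE2 and 96.3 and 89.4 in HP. Its fall from HB to HE1 was 1.98 ± 0.24 (adjusted p = 0.000213). Slc16a3 held 36.9% of the RNA of both genes per kb in ES, 66.3% in HB, 12.9% in HE2, and 15.5% in HP, with 19.2% and 47.5% in the HE1 libraries. Per kb, Slc16a3 thus led in HB and Slc16a1 in all libraries of the other stages. Without scaling by length Slc16a3 held 70.3% in HB and also led in HE1 replicate 2, with 52.1%.

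Pyruvate dehydrogenase feeds pyruvate to the mitochondria and is switched off by its kinases. Pdha1 was at 230.1 and 224 CPM in ES and 97.9 to 215 in the other libraries, Pdhb was at 67.0 to 116 in all 10, and neither was called in any comparison. Of the kinases, Pdk1, a HIF-1 target, was at 168 and 163 CPM in ES, 139 and 145 in HB, 36.8 and 27.8 at HE1, 42.0 and 38.7 at HE2, and 42.0 and 41.7 in HP. Its change into HB was -0.22 ± 0.15 (adjusted p = 0.28), and it fell by 2.14 ± 0.16 into HE1 (adjusted p = 1.4e-05).

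The other kinases took different courses. Pdk2 was at 3.34 and 2.44 CPM in ES and 5.65 to 10.4 in all later libraries, and rose by 1.19 ± 0.30 into HB (adjusted p = 0.00866), a call lost without ES replicate 2 (1.00) or HB replicate 2 (0.97). Pdk3 was at 53.2 and 53.9 CPM in ES, 37.1 and 40.4 in HB, 24.8 and 21.9 at HE1, 33.1 and 40.7 at HE2, and 39.9 and 37.1 in HP, and was called in none of the comparisons made. Pdk4, which is induced by fasting and fatty acids in many tissues, was at 10.6 and 10.7 CPM in ES, 5.29 and 5.41 in HB, 10.3 and 8.36 at HE1, 3.93 and 1.37 at HE2, and 0.96 and 1.53 in HP. Both HE1 libraries were above HB and above all later libraries. It fell by 1.81 ± 0.43 from HE1 to HE2 (adjusted p = 0.0272, lost in 3 alternative fits, with -1.96 without HE1 replicate 2 and -1.23 without HE2 replicate 2) and by 2.92 ± 0.46 from HE1 to HP (adjusted p = 0.00161). Per kb, Pdk1 held 46.1% of the kinase RNA in ES, 49.4% in HB, and 22.9% in HP, and Pdk3 45.4%, 40.8%, and 64.0%. The exons of Pdk1 are the longest of the 4, and without scaling by length Pdk1 remained ahead of Pdk3 in HP with 46.4% against 42.7%.

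**Figure D5:**
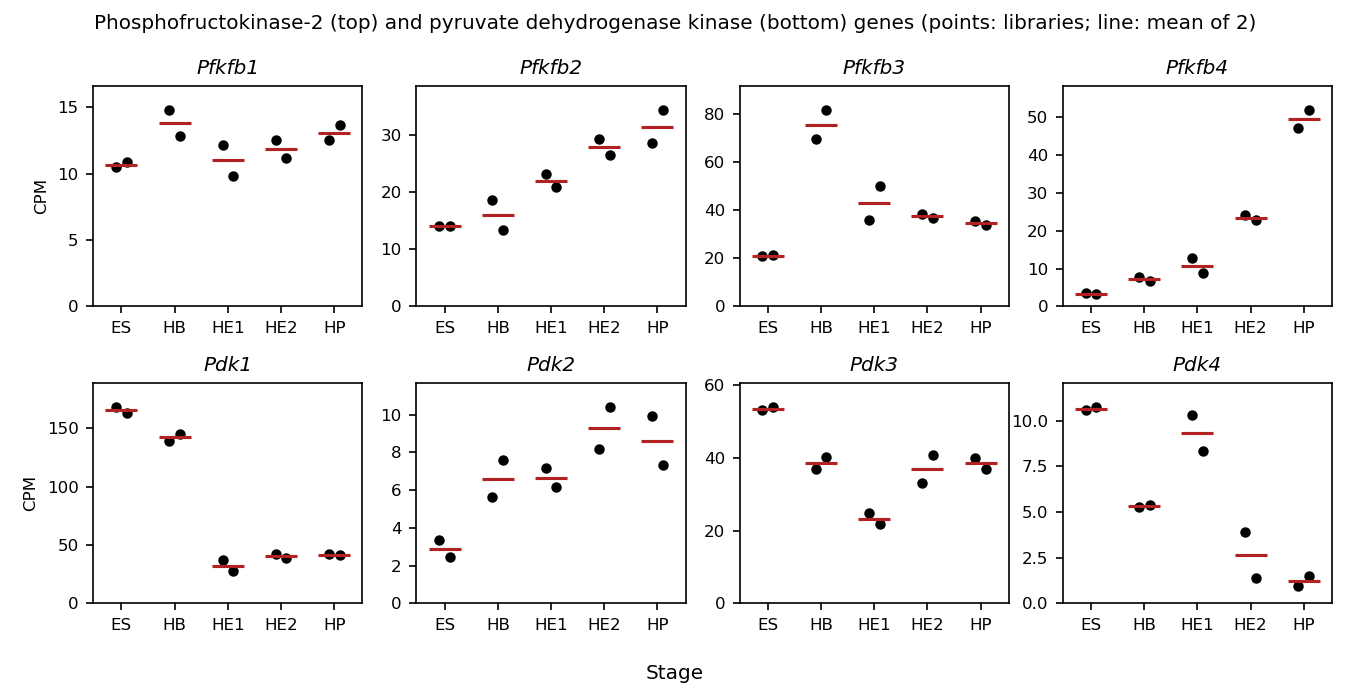
CPM (vertical axes, each from 0) of the 4 phosphofructokinase-2 genes and the 4 pyruvate dehydrogenase kinase genes in the 5 stages. Points are libraries and red lines are means of 2. Pfkfb4 climbs from 3.42 and 3.30 in ES to 47.3 and 51.8 in HP, Pfkfb3 is highest in HB, Pdk1 drops between HB and HE1, and Pdk4 drops from HE1 to HP.

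Phosphofructokinase-2 enzymes make and remove fructose 2,6-bisphosphate, the strongest activator of phosphofructokinase. Pfkfb4 was the member with the steepest increase. It was at 3.42 and 3.30 CPM in ES, 7.77 and 6.70 in HB, 12.7 and 8.85 at HE1, 24.0 and 22.9 at HE2, and 47.3 and 51.8 in HP. The libraries of each stage lay above all those of the stage before. The summed erythroid markers increased alongside, with 549 and 270 CPM at HE1, 2227 and 1710 at HE2, and 4786 and 2461 in HP. So did those of hematopoietic progenitors, with 317 and 201 at HE1, 1020 and 1403 at HE2, and 1469 and 1258 in HP. The megakaryocyte and macrophage sums also rose from HE1 to HP, and the endothelial sum fell. Between the HP libraries the erythroid sum was lower in replicate 2, while Pfkfb4 was not. The part of these cell types in the course of Pfkfb4 was not tested. Pfkfb4 rose by 1.10 ± 0.21 from ES to HB (adjusted p = 0.00185), by 1.12 ± 0.20 from HE1 to HE2 (adjusted p = 0.0104), and by 3.88 ± 0.22 from ES to HP (adjusted p = 5.72e-07). Without HE1 replicate 2 the step from HE1 to HE2 was 0.88. From HE2 to HP its change was 1.08 ± 0.20, with an adjusted p of 0.0901 by edgeR.

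The other 3 genes of this family behaved otherwise. Pfkfb3, whose product has the highest kinase activity, was at 20.8 and 21.5 CPM in ES, 69.9 and 81.6 in HB, 35.9 and 50.2 at HE1, 38.7 and 36.9 at HE2, and 35.4 and 34.1 in HP. It rose by 1.84 ± 0.18 into HB (adjusted p = 2.71e-05), and the fall into HE1 was under 2-fold (-0.82 ± 0.17, adjusted p = 0.00582) but past it without HE1 replicate 2 (-1.07). Pfkfb2 was at 14.1 and 14.0 CPM in ES, 18.6 and 13.4 in HB, 23.3 and 20.9 at HE1, 29.3 and 26.5 at HE2, and 28.6 and 34.4 in HP, and was 1.16 ± 0.19 higher in HP than in ES (adjusted p = 0.000589). Of its exon bases 17.4% are shared with Gm29427, which had 3674 counts in all libraries together, against 7643 of Pfkfb2. Pfkfb1 stayed between 9.81 and 14.7 CPM in all libraries. Per kb, Pfkfb3 led the family in HB with 58.4%, and Pfkfb4 in HP with 45.4%, up from 8.53% in ES. The summed level of the 4 genes was 8.0 and 8.16 CPM per kb in ES, 17.1 and 17.2 in HB, 13.6 and 13.8 at HE1, 17.2 and 16.0 at HE2, and 21.4 and 23.3 in HP. It was thus lowest in ES and highest in HP, with HB above HE1 as for the enzymes of the pathway.

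Tigar, a phosphatase that lowers fructose 2,6-bisphosphate and diverts sugar to the pentose phosphate pathway, was at 49.0 and 47.6 CPM in ES, 14.1 and 14.2 in HB, and 16.9 to 21.6 in all later libraries. It fell by 1.77 ± 0.16 into HB (adjusted p = 1.68e-05) and showed the lowest level where the enzymes showed their highest.

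The genes are spread over 14 chromosomes, with 8 on chromosome 6 and 4 on X (mm10). Eno2, Tpi1, and Gapdh lie near each other. Tpi1 (chr6:124810586-124814296, minus strand) is 40.9 kb from Eno2 (chr6:124760053-124769673, minus strand) and 347 kb from Gapdh (chr6:125161715-125166467, minus strand). From ES to HB Tpi1 rose by 1.70 on the log2 scale, whereas Gapdh differed by 0.09 ± 0.14 from ES to HB (adjusted p = 0.659), and Eno2 by 0.08 ± 0.48 (adjusted p = 0.916).

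Promoters were compared because many glycolytic genes are textbook targets of HIF-1, which binds ACGTG or GCGTG, and of MYC and USF factors, which bind CACGTG. RefSeq promoter windows of 300 bases (250 before and 50 after the start, GRCm38.p6) were found for 33 of the 34 genes, all but Slc2a3, with 52 windows in all. ACGTG or GCGTG, read on both strands, occurred in 28 of the 33 genes (84.8%), against 46.7% of 27025 genes with a window. ACGTG alone was in 18 (54.5% against 21.8%) and GCGTG alone in 22 (66.7% against 35.2%). CACGTG, which contains ACGTG on each strand, was in 6 (18.2% against 8.09%). The member windows were also richer in G and C, with a median of 60.5% against 52.7% in all windows, and held a median of 17.5 CG dinucleotides against 7, and every one of these motifs contains CG. Among the 17 members that fell from HB to HE1, 16 had a window and 9 of these held ACGTG, and of the other 17 members 9 did. A match of these letters is a description and not a binding site. The 250 bases before the start are shown for 4 members that fell from HB to HE1, because they hold the matches in different number and form. The windows shown overlap no annotated exon on their strand, run 5′ to 3′ on the strand of the gene, and carry the letters of ACGTG or GCGTG on either strand in capitals. The Ldha window is the first of its 2, on the plus strand at chr7:46845554-46845803. That of Pgk1 is on the plus strand at chrX:106186850-106187099, that of Hk2 on the minus strand at chr6:82774455-82774704, and the first of the 2 of Pdk1 on the plus strand at chr2:71872974-71873223.
Ldha: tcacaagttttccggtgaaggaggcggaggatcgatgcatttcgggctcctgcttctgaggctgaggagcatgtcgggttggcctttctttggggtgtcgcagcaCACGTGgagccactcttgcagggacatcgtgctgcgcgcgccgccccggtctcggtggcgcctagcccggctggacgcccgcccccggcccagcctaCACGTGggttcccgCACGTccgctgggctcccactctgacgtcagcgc
Pgk1: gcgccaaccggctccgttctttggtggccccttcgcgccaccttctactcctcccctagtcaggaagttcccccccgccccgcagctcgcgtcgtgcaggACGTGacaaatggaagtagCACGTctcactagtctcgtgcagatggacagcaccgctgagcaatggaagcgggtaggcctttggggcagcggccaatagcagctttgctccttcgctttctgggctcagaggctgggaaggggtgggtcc
Hk2: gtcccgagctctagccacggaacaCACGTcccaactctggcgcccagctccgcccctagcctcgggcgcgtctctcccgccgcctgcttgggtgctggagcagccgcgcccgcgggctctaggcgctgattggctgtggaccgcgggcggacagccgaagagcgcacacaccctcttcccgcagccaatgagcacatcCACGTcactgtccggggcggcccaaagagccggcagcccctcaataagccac
Pdk1: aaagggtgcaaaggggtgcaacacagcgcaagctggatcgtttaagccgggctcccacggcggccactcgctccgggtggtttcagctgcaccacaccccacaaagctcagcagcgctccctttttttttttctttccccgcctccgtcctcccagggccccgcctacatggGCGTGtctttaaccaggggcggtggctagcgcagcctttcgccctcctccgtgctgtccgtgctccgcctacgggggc
The Ldha window holds 5 matches, with each of its 2 CACGTG counted on both strands, those of Pgk1 and Hk2 hold 2 each, and that of Pdk1 holds 1, which is GCGTG. From HB to HE1 these genes changed by -2.42, -2.22, -2.17, and -2.14 on the log2 scale, in the order shown. Tpi1, whose window holds neither ACGTG nor GCGTG, fell by more than Pgk1, Hk2, and Pdk1. Pfkl, with 1 GCGTG and no ACGTG, fell by more than each gene shown. A relation between matches and the size of the fall was not tested.

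Other genes linked to the pathway were examined as lists. Of 25 genes of the hypoxia response outside glycolysis, 10 were called higher and 1 lower from ES to HB, and 1 higher and 10 lower from HB to HE1. The shares of all tested genes were 11.5% higher and 17.3% lower for the former step, and 12.7% and 8.19% for the latter. Egln3, a prolyl hydroxylase that marks HIF for destruction and is itself induced by it, was at 10.1 and 10.2 CPM in ES, 132 and 164 in HB, and 33.4 and 32.2 in HE1, a rise of 3.86 ± 0.16 and a fall of 2.18 ± 0.15. Bnip3, a mitophagy receptor, was at 34.6 and 33.5 CPM in ES, 111 and 147 in HB, and 6.48 and 9.18 in HE1 (-4.04 ± 0.23 from HB to HE1). Epas1, which encodes HIF-2α, ran the opposite way, with 40.1 and 40.0 CPM in ES, 7.74 and 7.72 in HB, and 170.4 and 89.4 in HE1. Later, Epas1 was at 61.4 and 19.1 CPM in HE2 and 7.37 and 18.9 in HP, so that HP replicate 1 was as low as HB.

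Of 14 tested genes of gluconeogenesis and glycogen, 5 were called higher and 1 lower from ES to HB, and 9 higher and 1 lower from ES to HP. All tested genes had 11.5% and 17.3% for ES to HB, and 16.7% and 21.9% for ES to HP. From HB to HE1 the list went both ways, with 2 called higher and 3 lower (12.7% and 8.19% of all genes). Its median change there was -0.07. Pygl, the liver glycogen phosphorylase, was at 2.2 and 2.01 CPM in ES, 31.3 and 39.3 in HB, 1.43 and 2.11 at HE1, 4.45 and 3.65 at HE2, and 13.8 and 11.3 in HP. It rose by 4.06 ± 0.27 into HB and fell by 4.30 ± 0.28 into HE1. Pgm1, which joins glycogen to glycolysis, was at 19.2 and 17.9 CPM in ES, 125 and 144 in HB, and 29.9 and 29.1 in HE1.

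The pentose phosphate pathway, which branches off at glucose 6-phosphate, showed another order. Of its 10 genes, 3 were called lower from ES to HB (17.3% of all tested genes) and none was called from HB to HE1, where 4 of the 10 had an unadjusted p under 0.05 by edgeR, as did 43.9% of all tested genes. From HE1 to HE2, 2 were called higher and none lower (3.26% and 5.39% of all genes), and by adjusted p alone 7 were higher (6.12%). Rpia, for ribose 5-phosphate isomerase, was at 8.41 and 5.29 CPM at HE1, 15.6 and 24.7 at HE2, and 31.6 and 25.5 in HP, and rose by 1.56 ± 0.28 from HE1 to HE2. Prps2, which makes phosphoribosyl pyrophosphate, was at 66.0 and 48.0 CPM in HE1 and 91.5 and 146 in HE2.

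Of 18 tested genes of other isoforms and transporters, 1 was called higher and 3 lower from ES to HB (11.5% and 17.3% of all genes), 2 higher and 4 lower from HB to HE1 (12.7% and 8.19%), and 4 higher and 6 lower from ES to HP (16.7% and 21.9%). Among those that fell, the fructose transporter gene Slc2a5 was at 4.29 and 5.22 CPM in ES and 0.11 and 0.095 in HP, and the testis isoform Ldhc at 1.51 and 1.35 in ES and 0.023 and 0.13 in HP, levels in HP of only a few counts. Among those that rose, Slc2a6, a lysosomal hexose transporter, rose from 0.29 and 0.30 CPM in HE1 to 2.10 and 2.67 in HE2 and 6.05 and 8.20 in HP (4.57 ± 0.47 from HE1 to HP). Slc2a9, a urate and hexose transporter, was at 0.06 to 0.26 CPM in ES and HB and at 2.48 to 4.91 later. Of 10 genes of pyruvate entry into mitochondria, 2 were called lower from HB to HE1 and none higher (8.19% and 12.7% of all genes), among them Pcx, for pyruvate carboxylase (-1.33 ± 0.19). Of 8 glucose-sensing regulators, 1 rose (Txnip, 1.07 ± 0.31) and 1 fell (Mlxipl, -2.62 ± 0.50) from ES to HB, which is near the 11.5% and 17.3% of all tested genes.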

How the data were processed

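Nuclear RNA depleted of rRNA was sequenced with a stranded protocol. Per the labels and file headers, the authors filtered reads with RiboDetector and Trimmomatic, used HISAT2 (v2.2.1) with the mm10 genome, and made counts per gene with featureCounts on Ensembl exons, as read pairs in reverse-stranded mode. A pair overlapping several genes was counted on each, and reads mapping to several places were not counted. These deposited counts are not normalized. The authors also deposited a matrix of mean expression scores per stage, made with edgeR (v3.40.2) and limma in R (v4.2.3), which was used here only to find the members.

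Here edgeR (v4.0.16, under R v4.3.3) was used, with TMM factors and the 22596 genes kept by filterByExpr on stage. Its quasi-likelihood F test was run on 1 model of all 10 libraries with a term for stage (5 residual degrees of freedom), and p-values were adjusted by Benjamini-Hochberg. A call required an adjusted p under 0.05 and at least 2-fold change. A floor of 3 counts is 0.051 to 0.12 CPM and covers counting error only. Values per kb use the exon length of the count tables. The alternatives were limma-voom (v3.58.1), DESeq2 (v1.42.0), total counts, no filter, only the 4 libraries compared, the replicate number as a term, library sizes without the 20 largest genes, the adjusted p alone, and leaving out each library. Gene symbols and positions came from the tables of the reference and the count files, for 55141 of 55487 genes, and promoter windows from RefSeq.

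Members and lists were chosen with earlier results of these data known. Members called in a comparison or belonging to an isoform family are described in all libraries, and other pathway genes were named only where called, at most the 2 largest in each direction. The labels do not say whether the replicate numbers pair the libraries, and the main model has no term for them. Protein sequences were not used here.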

Additional observations from a re-analysis of the deposited data

How the results depend on the processing

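The counts of members called from ES to HB, HB to HE1, and ES to HP were within 1.5 times the reported ones under every alternative except the adjusted p alone, which gave 16 higher and 7 lower from ES to HB, 2 higher from HB to HE1, and 5 higher from ES to HP. By adjusted p alone, 2 members were higher from HE1 to HE2 and 6 from HE1 to HP. From HE1 to HE2 the 2 lower calls became 4 with DESeq2, 6 without a filter, 1 with total counts, 1 with library sizes without the 20 largest genes, and 0 with only the 4 libraries compared, which also gave 0 higher. In that comparison the replicate block gave 1 lower call, and it moved no other count of calls by over 1.5 times. The replicate differences of the stages correlated between -0.32 and 0.21, which cannot settle whether libraries with the same number came from the same culture. From HE2 to HP, limma-voom, DESeq2, and no filter each called 1 member higher, where the share of all genes called was not computed. Leaving out 1 library at a time gave 0 to 2 higher and 0 to 6 lower from HE1 to HE2, 0 to 1 in each direction from HE2 to HP, and 1 to 5 lower from HE1 to HP, and the cause was not tested. Without HE1 replicate 2 some changes turned, which gave ranges over left-out libraries of -7.13 to 1.08 for Pgam2 from HE1 to HE2, -3.80 to 0.59 for Pgam2 from HE1 to HP, and -1.37 to 0.0082 for Slc16a3 from HE1 to HP. Over all alternatives, 1839 of 1919 values of single genes kept their direction and side of the threshold. Library sizes without the 20 largest genes moved the median of all genes from ES to HB by 0.10. With 2 libraries per stage, calls near 2-fold such as Eno3 and low genes such as Pgam2 and Eno2 are the least certain, and every count from HE1 rests on libraries that differ in ES and cardiac marker RNA.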
